A study of Mus musculus with 6 samples.

Results

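The Zfp genes are the mouse genes named "zinc finger protein" with a number, and 196 of the 362 protein-coding Zfp genes in the count table were described here. They were chosen by their measured counts, as the protein-coding genes named Zfp followed by digits alone whose median raw count over the 6 tumors was 150 or more. The rule asked for a level over both groups and for no difference between them. It was not blind to a difference, because the median could be reached through the vehicle tumors alone, whose libraries were deeper. Among the largest decreases below, Zfp871, Zfp763, Zfp472, Zfp97, Zfp382 and Zfp943 passed in this way, with under 150 counts in every RGS tumor. Other genes did too, among them Zfp870, Zfp938 and Zfp467, which were also called lower, and Zfp626, which was not called. The counts of lower genes below therefore include genes that entered through the vehicle tumors. Of the other protein-coding Zfp genes, 107 were tested below that floor, 59 were not tested, and 37 of those 59 were listed at 0 in every tumor.

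The tumors were grown from YUMM3.3, a mouse melanoma cell line that carries mutant Braf, injected under the skin of the lower back of C57BL/6 mice. Both groups carried the same line, and the host supplied the stroma and an intact immune system. The 3 vehicle tumors (replicates 7, 8 and 9) came from mice given H2O by oral gavage, and the 3 RGS tumors (replicates 10, 11 and 12) came from mice given rigosertib at 300 mg/kg. The paper treats rigosertib as a RAS mimetic that inhibits RAS, RAF and PI3K signaling, and mentions a dispute over its action on microtubules. Both groups were dosed on 5 days a week and labelled as collected after 17 days of treatment, for bulk RNA sequencing. The mice were grafted at 8 to 10 weeks of age, and the labels do not tie a sex to these libraries. The labels do not say whether each library was 1 mouse, so p-values measure the spread between these libraries.

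Most Zfp genes encode transcription factors with tandem C2H2 zinc fingers, short zinc-binding folds that read DNA bases. A large subset also carries a KRAB domain at the amino end, which binds the corepressor Trim28 (KAP1). Trim28 in turn recruits the histone H3 lysine 9 methyltransferase Setdb1, HP1 proteins and the NuRD deacetylase, and this machinery silences retroelements and guards genomic imprints. KRAB zinc finger genes arose by tandem duplication and stand in clusters, with mouse chromosomes 7 and 17 among those that hold them. Other Zfp genes share only the name and act on RNA, translation or ubiquitin.

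The median change of the 196 Zfp genes was small, and the genes that carry a KRAB motif passed the test in the lower direction alone. In all, 42 Zfp genes were lower in RGS tumors, 20 were higher and 134 did not pass the test, at an adjusted p under 0.05 in edgeR's quasi-likelihood test over 15355 genes. Lower calls thus made up 21.4% of the Zfp genes and higher calls 10.2%. Over all genes tested the background was 16.5% lower and 16.3% higher, and over the 9400 protein-coding genes with the same count floor it was 21.7% lower and 21.7% higher. The share of lower calls was therefore near the background and the share of higher calls was under it. The Zfp genes also had fewer counts. The median of their median counts was 436, against 957 for the other protein-coding genes with the same floor. It was 262 for Zfp genes with a KRAB motif and 526 for those without. What part of these shares runs with count level was not tested. The median log2 fold change (RGS minus vehicle) was -0.15 for the Zfp genes, -0.05 for all tested genes and -0.00 for the other protein-coding genes with the same floor. In bulk tumors, fewer cells of a type and less RNA per cell cannot be told apart.

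The split between lower and higher calls depended on the scaling. With library size alone in place of TMM factors, 59 Zfp genes were lower and 8 higher, the median Zfp change was -0.29, and the median over all genes moved from -0.05 to -0.19. Changes are therefore read here against that of all genes. With an offset for the GC content of each gene, 22 Zfp genes were lower and 22 higher, with a median of 0.02, against a background of 16.3% lower and 23.4% higher. Of the higher calls, 10 were left without vehicle tumor 8 and 12 without vehicle tumor 9, and over all genes tested the higher calls went from 2503 to 1776 and 1995.

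Among the genes with the steepest decreases, 3 KRAB genes of chromosome 17 and 1 of chromosome 8 are shown with the bases before their start sites, because these 4 and Zfp367 led the list of falls. Zfp668, which rose, stands beside them. The sequences are the 200 bases before the first RefSeq start of each gene (GRCm38.p6, the mm10 assembly used for the counts), 5′ to 3′ in the direction of transcription. The coordinates are chr17:32788288-32788487 on the minus strand for Zfp871, chr17:33033382-33033581 on the minus strand for Zfp763, and chr17:32965631-32965830 on the plus strand for Zfp472. Zfp958 was read at chr8:4612970-4613169 on the plus strand, Zfp367 at chr13:64153200-64153399 on the minus strand and Zfp668 at chr7:127876837-127877036 on the minus strand. Capitals mark the word CCAAT and its reverse complement ATTGG. They also mark the word GAGTGAC and its reverse complement GTCACTC, and the word GGGCGG and its reverse complement CCGCCC. No matches overlapped in these 6 sequences.
Zfp871: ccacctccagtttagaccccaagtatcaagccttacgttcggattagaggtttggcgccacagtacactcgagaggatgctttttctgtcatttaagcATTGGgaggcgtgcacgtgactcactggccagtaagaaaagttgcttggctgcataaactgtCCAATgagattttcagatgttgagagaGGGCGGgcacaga
Zfp763: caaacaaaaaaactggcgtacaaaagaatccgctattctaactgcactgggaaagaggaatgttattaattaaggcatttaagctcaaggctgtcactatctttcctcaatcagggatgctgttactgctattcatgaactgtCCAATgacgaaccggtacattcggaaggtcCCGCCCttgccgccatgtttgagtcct
Zfp472: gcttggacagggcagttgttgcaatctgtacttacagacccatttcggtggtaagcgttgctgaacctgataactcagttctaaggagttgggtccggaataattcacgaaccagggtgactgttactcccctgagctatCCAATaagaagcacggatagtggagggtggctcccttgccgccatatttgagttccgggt
Zfp958: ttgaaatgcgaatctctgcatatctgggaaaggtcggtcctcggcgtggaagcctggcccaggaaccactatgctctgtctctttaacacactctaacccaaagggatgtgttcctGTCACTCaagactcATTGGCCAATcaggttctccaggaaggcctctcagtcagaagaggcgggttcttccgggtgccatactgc
Zfp367: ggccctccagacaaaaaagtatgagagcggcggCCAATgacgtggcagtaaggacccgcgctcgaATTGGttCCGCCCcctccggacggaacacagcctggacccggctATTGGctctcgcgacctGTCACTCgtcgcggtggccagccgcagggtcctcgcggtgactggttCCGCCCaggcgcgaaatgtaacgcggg
Zfp668: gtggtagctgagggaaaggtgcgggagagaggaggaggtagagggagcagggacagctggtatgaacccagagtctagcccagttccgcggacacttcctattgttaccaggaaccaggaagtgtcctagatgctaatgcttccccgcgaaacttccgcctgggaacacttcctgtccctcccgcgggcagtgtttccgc

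Zfp871, Zfp763 and Zfp472 each held a CCAAT on the printed strand, beginning 40, 57 and 60 bases before the start. In Zfp958 an ATTGG ran directly into a CCAAT 65 bases before the start, with GTCACTC 84 bases before it. Zfp367 held matches to each of the 3 words, and Zfp668 held none. The words were chosen after the sequences had been seen, so their counts are a description. CCAAT and GAGTGAC also lie within the 8-base words with the largest excess in the promoters of these KRAB genes over other genes. The shares below are therefore not independent of that excess.

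Over the 250 bases before the start, read on both strands, 165 of the 196 Zfp genes could be matched to a RefSeq start. CCAAT or ATTGG stood in 36 of 63 promoters of genes with the KRAB motif (57.1%), in 37.3% of those of Zfp genes without it, in 37.0% of those of the other protein-coding genes with the same count floor and in 34.5% of all 27025 promoters. GAGTGAC or GTCACTC stood in 14 of the 63 (22.2%), against 4.90%, 4.01% and 3.72% in the same order. GGGCGG or CCGCCC stood in 38.1% of promoters of KRAB genes, 53.9% of those of the Zfp genes without the motif, 64.3% of those of the other protein-coding genes and 32.9% of all promoters. Of the 20 promoters of KRAB genes that fell, 15 held CCAAT or ATTGG, 8 held GAGTGAC or GTCACTC and 11 held GGGCGG or CCGCCC. Of the 43 of KRAB genes that did not pass the test, these stood in 21, 6 and 13. CCAAT or ATTGG was also found in promoters of Zfp genes without the motif, in 9 of 17 that fell and 9 of 14 that rose, so it did not mark the falling genes alone. No binding was measured, and the counts say nothing of which factor reads these bases.

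The libraries held 22793087 to 32555494 counts in vehicle tumors and 13837932 to 21617368 in RGS tumors. The Zfp genes together took 0.557% to 0.584% of the counts in vehicle tumors and 0.465% to 0.521% in RGS tumors. Ribosomal protein genes took 5.52% to 9.98% and 3.07% to 3.60%, and mitochondrial genes 2.13% to 3.20% and 5.60% to 8.22%. Their part in the Zfp results was not tested.

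The label of the tumors was checked against markers. Of 7 melanocyte lineage markers, Tyr, Dct and Mlana were listed at 0 in every tumor, Mitf alone had counts of 74 or more in every tumor, and the 7 summed to 4.94 to 7.68 CPM in vehicle and 4.53 to 10.5 CPM in RGS tumors. The 9 leukocyte markers summed to 246 to 313 CPM in vehicle and 1007 to 1096 CPM in RGS tumors, with 2 of them higher, while Ptprc, Cd3e, Cd8a and Adgre1 were listed at 0 in all 6. Laptm5 was the largest part of that sum in every tumor, at 3549 to 7670 counts in vehicle and 12634 to 19348 in RGS tumors. Cd68 had 1368 to 2265 and 917 to 1434 counts, Csf1r at most 1 and Cd79a at most 11. The sum therefore does not show a rise across the list. The 5 fibroblast markers summed to 364 to 553 and 273 to 303 CPM (2 lower and 1 higher, Lum at 0), and the 5 endothelial markers to 0.946 to 1.20 and 3.24 to 11.2 CPM (1 higher, Emcn at 0). The 6 keratinocyte markers summed to 0.400 to 1.72 and 6.77 to 22.8 CPM (1 higher, Krt1 at 0), and the 4 muscle markers to 0 to 0.891 and 0.377 to 1.16 CPM (1 higher, Ckm and Myh4 at 0). The part of these cell types in the Zfp results was not tested. In all, 17378 genes of the table were listed at 0 in every tumor, among them Ptprc beside abundant Laptm5 and Cd53, so a gene listed at 0 here, Zfp genes included, is not shown to be unexpressed.

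Levels are given as CPM, counts per 1000000 counts of the library after TMM scaling. Per kilobase of exon, the Zfp genes had a median of 4.002 CPM in vehicle and 3.37 CPM in RGS tumors. They ranged from 0.730 to 37.1 CPM per kilobase over the 6 tumors, with 24 genes over 10 and 5 genes under 1. The genes with a KRAB motif had a median level of 3.03 CPM per kilobase and those without it 4.62. The highest per length were Zfp703 at 37.1, Zfp706 at 32.1 and Zfp207 at 28.1 CPM per kilobase. Zfp706, a small protein needed for embryonic stem cells to leave self-renewal, measured 132, 144 and 143 CPM in vehicle and 176, 162 and 203 CPM in RGS tumors, a log2 change of 0.37 that did not pass the test (SE 0.15, adjusted p = 0.0744 by edgeR). At the edge of the rule, Zfp799 and Zfp184 stood just inside with median counts of 151 and 153, and Zfp101 and Zfp658 just outside with 148 and 149.5.

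The 10 largest decreases among genes that passed the test without overlap were led by KRAB genes of chromosome 17. Zfp871 (chr17:32771236-32788287), a KRAB zinc finger gene, measured 24.8, 28.5 and 26.4 CPM in vehicle tumors 7, 8 and 9 and 4.40, 8.21 and 3.18 CPM in RGS tumors 10, 11 and 12. All RGS values lay far below all vehicle values, a 5.08-fold decrease in the fit (log2 change -2.35, SE 0.32, edgeR adjusted p = 1.64e-05). Zfp763 (chr17:33016863-33033402), another KRAB gene, measured 11.6, 10.9 and 13.8 CPM against 4.12, 1.73 and 2.75 CPM (log2 change -2.06, edgeR adjusted p = 0.000488). Its promoter and that of Zfp871 carry the CCAAT words printed above. Zfp472, also a KRAB gene of that chromosome, ranged more widely in vehicle tumors, at 6.76, 14.005 and 18.3 CPM, than in RGS tumors, at 4.31, 4.37 and 1.96 CPM (log2 change -1.87). Vehicle tumor 7 was the lowest of the vehicle values and still above every RGS value.

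Off chromosome 17 the steepest decrease was that of Zfp367 (chromosome 13, no KRAB motif, 2 finger motifs). It measured 48.6, 46.8 and 54.2 CPM in vehicle and 15.1, 10.2 and 10.5 CPM in RGS tumors, a 4.16-fold decrease in the fit (log2 change -2.06, SE 0.22, edgeR adjusted p = 1.08e-06). The groups stood well apart, although 10.9% of its exonic bases overlap Gm47513, so reads of the pair cannot be fully told apart. Zfp958 (chromosome 8, KRAB motif), whose promoter holds the joined ATTGG and CCAAT, measured 21.2, 33.6 and 47.0 CPM in vehicle and 8.81, 9.34 and 12.6 CPM in RGS tumors (log2 change -1.73). Zfp800 (chromosome 6, no motif), a factor of pancreatic endocrine development, measured 27.5, 26.8 and 32.0 CPM against 10.3, 11.5 and 5.08 CPM (log2 change -1.69).

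The last 4 of the 10 all carried the KRAB motif, and their values did not overlap either. Zfp97 measured 9.11, 8.66 and 14.3 CPM in vehicle and 3.17, 3.24 and 3.55 CPM in RGS tumors (log2 change -1.68), with 67.3% of its 100-base words also found in other genes, mostly Zfp960, so its reads are uncertain. Zfp984 measured 18.0, 16.4 and 16.1 CPM against 3.41, 3.54 and 9.18 CPM (log2 change -1.65), and shared 29.9% of its words. Both kept lower values in every RGS tumor. Zfp382 went from 6.71, 11.4 and 11.4 CPM to 5.78, 3.01 and 1.16 CPM (log2 change -1.55), and its adjusted p was 0.0671 without vehicle tumor 8. Zfp943 went from 7.82, 9.12 and 13.1 CPM to 3.65, 4.90 and 2.33 CPM (log2 change -1.47), with an adjusted p of 0.0566 without vehicle tumor 9 and 0.0919 with the GC offset, in edgeR.

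The 10 largest increases held no gene with the KRAB motif, and 2 of them stood apart from the rest in size. Of these 2, Zfp369 held a looser form of the motif, described below. Zfp703, a transcriptional corepressor known as an amplified gene of luminal breast cancer, measured 69.8, 52.1 and 39.3 CPM in vehicle and 204, 205 and 184 CPM in RGS tumors. Its mean was 3.68-fold higher in RGS tumors (log2 change 1.88, SE 0.19, edgeR adjusted p = 5.97e-07), and 13.5% of its exonic bases overlap Gm45371. Every RGS tumor was above every vehicle tumor by a wide margin. Zfp369, which together with Zfp110 encodes proteins that bind the p75 neurotrophin receptor, measured 6.71, 6.59 and 7.70 CPM in vehicle and 23.7, 24.8 and 21.6 CPM in RGS tumors, 3.34-fold higher (log2 change 1.74, SE 0.26, edgeR adjusted p = 3.9e-05). Zfp110 went the other way, at 36.4, 37.7 and 38.1 CPM in vehicle and 23.2, 26.6 and 17.6 CPM in RGS tumors (log2 change -0.73), with an adjusted p of 0.0519 without vehicle tumor 8 and 0.0607 with the GC offset, in edgeR. Zfp110 was named after its values were seen.

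Zfp668 (chr7:127863047-127876828) rose from 13.0, 6.77 and 6.66 CPM to 16.8, 21.1 and 17.6 CPM, a log2 change of 1.06 with vehicle tumor 7 nearest the RGS values, and its adjusted p was 0.0524 in edgeR without vehicle tumor 8. Zfp710 rose from 18.9, 15.1 and 14.5 CPM to 30.9, 25.6 and 38.4 CPM (log2 change 0.96). In both, the groups were apart by a few CPM at the closest. Zfp746, also called PARIS, a repressor that parkin marks for degradation, rose from 32.2, 30.4 and 21.9 CPM to 50.7, 49.5 and 41.8 CPM (log2 change 0.75). Zfp362 measured 23.1, 23.4 and 13.1 CPM in vehicle and 37.4, 38.1 and 26.2 CPM in RGS tumors (log2 change 0.77), and Zfp628 measured 14.8, 12.3 and 11.996 CPM and 20.4, 18.3 and 26.2 CPM (log2 change 0.73). These last 2 were the less firm calls of the group: in edgeR Zfp362 had an adjusted p of 0.0819 to 0.111 without vehicle tumor 9, RGS tumor 10 or RGS tumor 11, and Zfp628 one of 0.0853 to 0.131 without vehicle tumor 8 or 9 or RGS tumor 12. With the GC offset their adjusted p was 0.102 and 0.271. The other 3 of the 10, Zfp687, Zfp217 and Zfp219, are given with the chromatin genes.

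**Figure D1:**
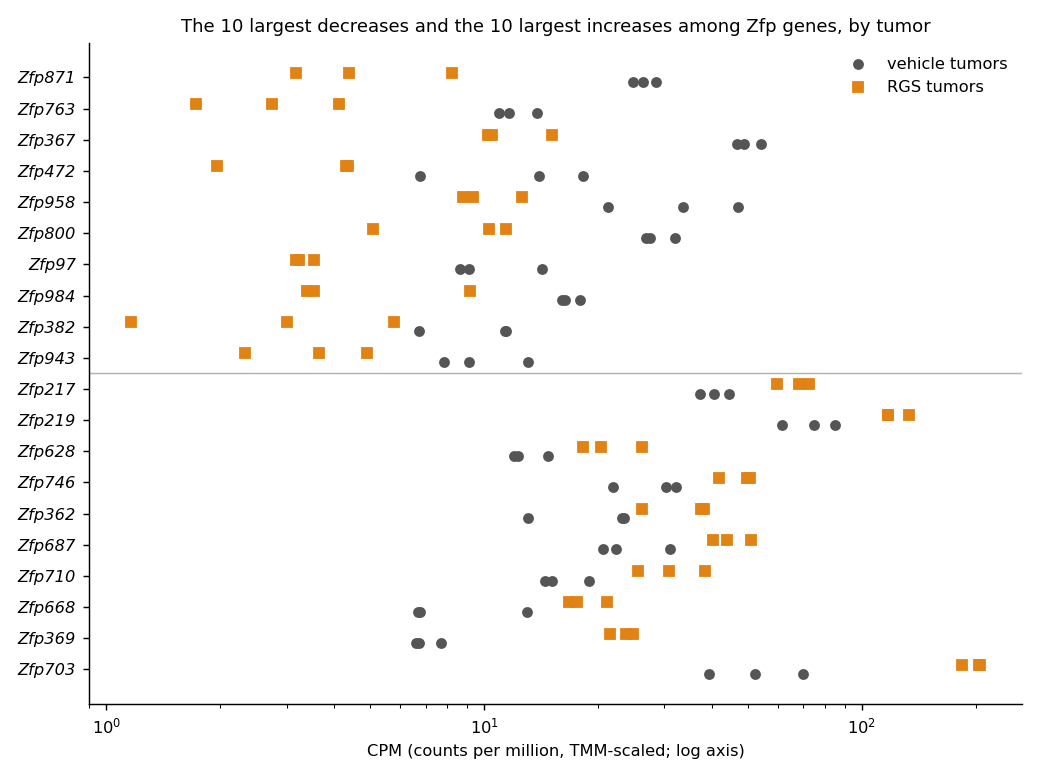
CPM (horizontal log axis) of the 10 Zfp genes with the largest decrease, above the line, and the 10 with the largest increase, below it; each point is 1 tumor, gray circles vehicle and orange squares RGS. The values of the groups do not overlap in any of these 20 genes, by which they were chosen.

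Of the genes that passed the test, 23 Zfp genes fell by 1 or more on the log2 scale and 3 rose by as much, beside 10.3% and 7.57% of the protein-coding genes with the same floor. Zfp626 had a log2 change of -1.09 and did not pass. The values of 92 of the 196 Zfp genes (46.9%) did not overlap between the groups, beside 45.8% of all genes tested and 54.3% of the protein-coding genes with the same floor. Of these 92, 32 did not pass the test, and 2 genes that passed, Zfp282 and Zfp414, had overlapping values.

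A KRAB motif, a set of conserved residues of the KRAB A box, was found in the translated coding regions of 69 of the 196 Zfp genes. Divergent KRAB boxes can lack it. Of the 69 genes, 22 were lower (31.9%) and 0 higher, with a median log2 change of -0.59. At an unadjusted p under 0.05, 1 of them, Zfp324, was higher, while DESeq2 called 0 and limma voom called 1. Of the 127 genes without the motif, 20 were lower and 20 higher, with a median of 0.07 that was -0.07 with scaling by library size alone. The count of 20 higher genes without the motif was 10 when vehicle tumor 8 was left out and 12 without vehicle tumor 9.

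A looser form of the motif was tried because some known KRAB genes, Zfp445 and Zfp568 among them, lacked the first one. It was found in 83 genes, of which 23 were lower and 1, Zfp369, higher, with a median log2 change of -0.49. Below the count floor both kinds of gene had negative medians: of 63 Zfp genes with the motif 8 were lower and 0 higher (median -0.62), and of 44 without it 4 were lower and 2 higher (median -0.40). The 46 Zbtb, Zscan and Zkscan genes with the same count floor, which are zinc finger genes of other names, held 6 lower and 7 higher genes with a median of 0.10. These groups were compared by counts and medians, and the difference between them was not tested.

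**Figure D2:**
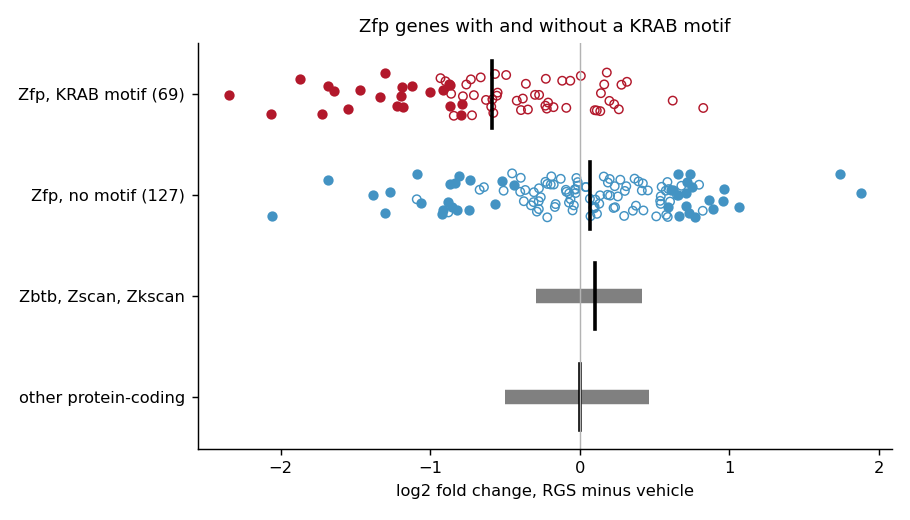
Log2 fold change (horizontal axis, RGS minus vehicle) of the 69 Zfp genes with and the 127 without the KRAB motif, 1 point per gene, filled where the gene passed the test; black bars are medians and gray bars the middle 50 percent of the Zbtb, Zscan and Zkscan genes and of the other protein-coding genes. The median of the genes with the motif is at -0.59, and no filled point among them lies above 0.

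The GC content of the genes moved with this split. The longest transcripts of the genes with the motif had a median GC content of 41.1%, and those of the genes without it 49.7%. Across the 196 Zfp genes Spearman's rho between GC content and log2 change was 0.64, and it was 0.59 within the 69 and 0.50 within the 127. Over 9197 other protein-coding genes, measured in the same 6 libraries, rho was 0.35. These are descriptions across genes, which share their libraries and are not independent.

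Under 40% GC, 20 of 33 Zfp genes were lower and 0 higher, with a median log2 change of -0.86. The median there was -0.87 with the motif (24 genes) and -0.84 without it (9 genes), while the 520 other protein-coding genes in that range had a median of -0.44, with 44.4% lower. Between 40% and 43% GC, 10 of 35 Zfp genes were lower and 1 higher (median -0.56, other genes -0.40), and between 43% and 46% the counts were 4 and 1 of 27 (median -0.13, other genes -0.21). Lower calls were thus 60.6% of the Zfp genes under 40% GC, above the share of the other genes there, and 28.6% and 14.8% in the next 2 ranges, below the 39.6% and 29.8% of the other genes. Between 46% and 50%, 5 of 32 were lower and 2 higher (median -0.01, other genes -0.06 with 22.3% lower and 18.3% higher), and over 50%, 3 of 69 were lower and 16 (23.2%) higher (median 0.30, other genes 0.23 with 12.5% lower and 30.7% higher). Only 6 genes with the motif had over 50% GC, and none of them passed the test. With the GC offset, 9 of the 69 genes with the motif were lower and 1 higher (median -0.16), and of the 127 without it 13 were lower (median 0.18). The background at the count floor was then 16.3% lower and 23.4% higher, so lower calls with the motif were no longer above it. The offset takes out whatever change runs with GC content, and the cause of that change was not tested.

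**Figure D3:**
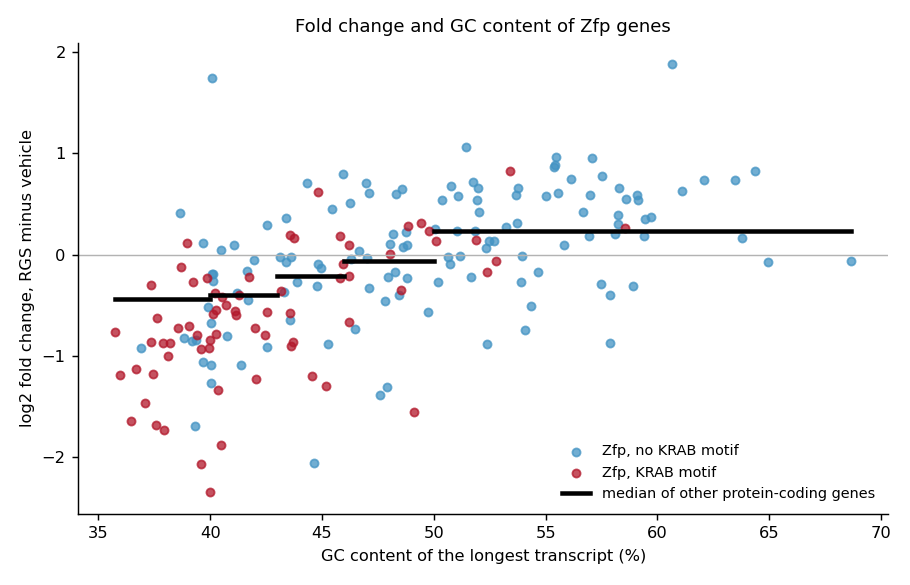
Log2 fold change (vertical axis, RGS minus vehicle) against the GC content of the longest transcript (horizontal axis, percent) for 196 Zfp genes, red with and blue without the KRAB motif; black steps are the medians of the other protein-coding genes in 5 GC ranges. The Zfp genes under 40% GC lie mostly below 0, at a median of -0.86 against -0.44 for the other genes.

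The tumors themselves did not carry the KRAB difference evenly. The deviation of each gene from its mean over the 6 tumors had a median over the 69 genes of 0.09, 0.33 and 0.45 (log2 of CPM + 0.5) in vehicle tumors 7, 8 and 9 and of -0.22, -0.25 and -0.32 in RGS tumors. Vehicle tumor 7 stood nearer to the RGS tumors than the other vehicle tumors did, but above them. Without it 28 of the 69 genes were lower, and without vehicle tumor 8 or 9 there were 16 and 15. For the 127 genes without the motif these medians were 0.06, -0.13 and -0.06 in vehicle and 0.10, 0.05 and -0.06 in RGS tumors, so the groups overlapped. The 69 genes took 0.112%, 0.134% and 0.147% of the counts in vehicle and 0.0831%, 0.0801% and 0.0732% in RGS tumors. The ribosomal protein share ran in the same order among the vehicle tumors and in the opposite order among the RGS tumors.

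**Figure D4:**
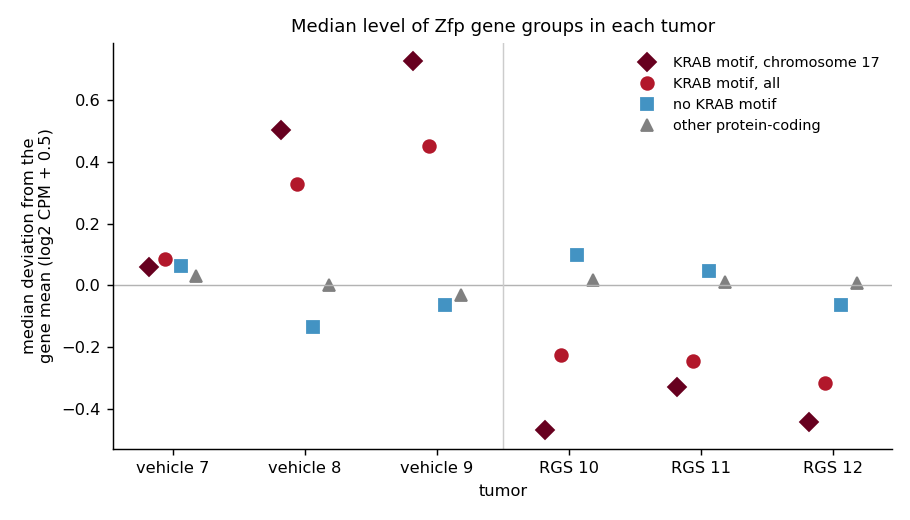
Median deviation from the gene mean (vertical axis, log2 of CPM + 0.5) in each of the 6 tumors (horizontal axis) for Zfp genes with the KRAB motif (all 69 and the 19 of chromosome 17), the 127 without it, and the other protein-coding genes. The medians of the genes with the motif are above 0 in the vehicle tumors, least so in vehicle 7 at 0.09, and below 0 in the RGS tumors.

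By chromosome, the Zfp genes stood on 20 chromosomes, and chromosomes 7 and 17 held 51 and 25 of them. No other chromosome held more than 15. On chromosome 17, 11 of 25 Zfp genes were lower and 2 higher, with a median log2 change of -0.73. All 11 carried the KRAB motif, and the 19 genes with the motif there were all negative in sign, with a median of -0.88. The 6 without it had a median of 0.47. Among the 438 other protein-coding genes of the chromosome with the same floor, 82 were lower and 82 higher, with a median of -0.02. Off chromosome 17, 11 of 50 genes with the motif were lower (22%) and 0 higher (median -0.41), a share of lower calls near the background of 21.7%, while on chromosome 17 it was 57.9%. These groups also differed in median GC content, which was 39.4% for the 19 genes, 42.8% for the 50 and 53.1% for the 438. What part of their differences runs with GC content was not tested.

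Clusters were taken as runs of protein-coding Zfp genes with gaps of up to 1 Mb that held at least 5 of those described here. Chromosome 17 had 2 such clusters, and Zfp57, Zfp97 and Zfp318 were among its genes outside them. The cluster at chr17:21008903-23599487 held 12 of the Zfp genes described, 11 with the motif, and 5 were lower and 0 higher (median -0.76). The cluster at chr17:32771236-33631779 held 8, among them Zfp871, Zfp763 and Zfp472, and 5 were lower and 1 higher (median -1.19). The other 4 protein-coding genes inside it had 2 lower and 0 higher, with a median of -0.98. Zfp870, in the same cluster, measured 11.989, 10.8 and 15.6 CPM in vehicle and 6.01, 3.09 and 7.59 CPM in RGS tumors (log2 change -1.19), and Zfp81 measured 21.037, 22.8 and 27.8 CPM and 15.1, 7.46 and 8.87 CPM (log2 change -1.18). Both were named after their values were seen. Neither overlapped between the groups.

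The higher gene of that cluster, Zfp414, was the largest increase on the chromosome, at 8.65, 11.011 and 8.64 CPM in vehicle and 9.04, 20.4 and 25.6 CPM in RGS tumors (log2 change 0.96, SE 0.33, edgeR adjusted p = 0.0323). RGS tumor 10 lay within the vehicle range, and 30.4% of its exonic bases overlap Gm20507. Its adjusted p in edgeR was between 0.0511 and 0.204 without vehicle tumor 7 or 9 or RGS tumor 11 or 12, and 0.105 with the GC offset.

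On chromosome 7 the balance differed. Of the 51 Zfp genes there, 6 were lower and 6 higher, with a median log2 change of -0.06. The 15 with the motif held 2 lower and 0 higher genes (median -0.21), and the 36 without it 4 lower and 6 higher (median 0.04). The 644 other protein-coding genes of the chromosome had 116 lower and 195 higher, with a median of 0.17. Zfp382 and Zfp668, described above, were its largest decrease and increase. Its 4 clusters held 5 to 9 Zfp genes with medians from -0.21 to 0.27. The Zfp genes of chromosome 7 had higher GC content than those of chromosome 17: the median was 49.7% for Zfp genes of chromosome 7 and 40.005% for those of chromosome 17.

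On chromosome 6 a cluster of 8 Zfp genes at chr6:47819266-48623227 held none with the motif. There 1 gene was lower, Zfp467 at 13.2, 13.5 and 12.5 CPM in vehicle and 6.01, 7.91 and 7.53 CPM in RGS tumors. The 2 higher genes were Zfp746 and Zfp282, the latter at 15.9, 10.5 and 11.5 CPM in vehicle and 23.2, 31.7 and 15.4 CPM in RGS tumors, where RGS tumor 12 fell inside the vehicle range. Its median log2 change was 0.44. Zfp282 was the largest increase on the chromosome (log2 change 0.89) and Zfp800 its largest decrease.

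**Figure D5:**
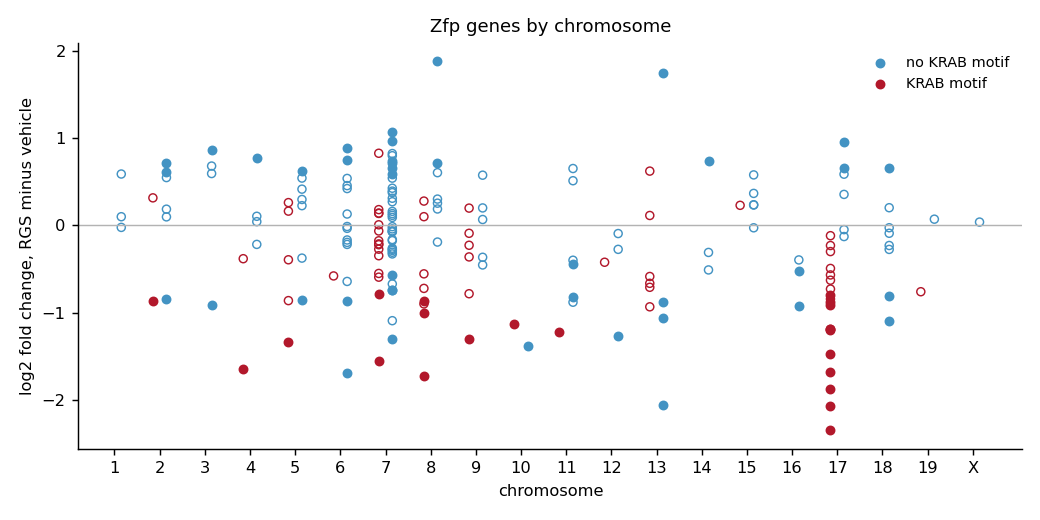
Log2 fold change (vertical axis, RGS minus vehicle) of the 196 Zfp genes by chromosome (horizontal axis), red with and blue without the KRAB motif, filled where the gene passed the test. The 19 genes with the motif on chromosome 17 all lie below 0, while the 51 Zfp genes of chromosome 7 spread to both sides.

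The length of the genes, as the sum of their exons, went with the change less than GC content did. The Zfp genes measured 1258 to 15839 bases, with a median of 4978.5. Split into 3 bins, of the shortest (up to 4159 bases) 14 of 65 were lower and 5 higher (median -0.21), of the middle ones 18 of 65 and 5 (median -0.31), and of the longest (over 6382 bases) 10 of 66 and 10 (median 0.08). Spearman's rho between length and log2 change was 0.15 over the 196 genes, 0.15 with the motif and 0.01 without it, and 0.04 over the other protein-coding genes. The number of finger motifs in the protein gave a rho of -0.18. Genes with 0 to 1 finger motifs held 2 lower and 1 higher of 15, those with 2 to 5 held 13 and 8 of 40, and those with 6 to 10 held 9 and 6 of 58. Those with 11 to 15 held 15 lower and 1 higher of 56, and those with 16 or more 3 and 4 of 27, so the shares followed no order in finger number.

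Of 31 tested genes of the corepressor and silencing machinery that KRAB proteins use, 7 were higher (22.6%), 5 lower (16.1%) and 19 not called, with a median of -0.06. These shares were near the background of 16.3% and 16.5% over all genes and of 21.7% each way at the count floor. Trim28, the protein that KRAB domains bind, rose from 280, 230 and 204 CPM to 448, 433 and 418 CPM (log2 change 0.86, SE 0.16, edgeR adjusted p = 0.000312). Setdb1, its methyltransferase partner, measured 58.5, 52.0 and 45.7 CPM in vehicle and 49.4, 43.2 and 55.7 CPM in RGS tumors and did not pass the test. Among the other higher genes, Trim24, a relative of Trim28, went from 68.6, 50.7 and 53.0 CPM to about 113 CPM in each RGS tumor (log2 change 0.97), and Mphosph8, of the HUSH silencing complex, had a log2 change of 0.75. Of the NuRD subunits, the remodelers Chd3 and Chd4 gave log2 changes of 0.67 and 0.72 and the deacetylase Hdac2 one of 0.95, while Hdac1, Mta1 and Mta2 had changes of -0.16, -0.08 and -0.35 and did not pass the test. The DNA methyltransferase Dnmt3a gave 0.84.

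The 3 HP1 genes were all lower: the log2 change was -0.53 for Cbx1, -0.62 for Cbx3 and -0.48 for Cbx5. Cbx5 measured 117, 95.4 and 96.6 CPM in vehicle and 70.0, 70.8 and 80.9 CPM in RGS tumors. Morc3 (-0.69) and Trim33 (-0.61) made up the rest of the lower genes. All 5 lost their call with the GC offset (adjusted p from 0.154 to 0.784 in edgeR) and without at least 1 tumor: without vehicle tumor 8 the adjusted p was 0.0828 for Cbx1, 0.0541 for Cbx3, 0.0775 for Cbx5 and 0.0729 for Morc3, and without RGS tumor 12 it was 0.0877 for Trim33. Calls were also lost without RGS tumor 11 for Cbx1, Cbx3, Cbx5 and Trim33 (0.0552 to 0.101), without RGS tumor 10 for Cbx1 and Cbx5 (0.0965 and 0.0941), without vehicle tumor 9 for Cbx1 (0.165) and without vehicle tumor 7 for Cbx5 (0.065).

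Of 6 KRAB genes known for silencing retroelements or guarding imprints, Zfp57, Zfp445, Zfp568, Zfp809 and Zfp932 were tested, and Zfp708 was not, with a median count of 0. Zfp809, which binds the primer binding site of integrated retroviruses, measured 15.0, 19.4 and 18.3 CPM in vehicle and 8.001, 3.84 and 9.42 CPM in RGS tumors (log2 change -1.30, SE 0.32, edgeR adjusted p = 0.0046). It alone of the 5 passed the test, a share of 20% beside a background of 21.7% lower at the count floor. The imprint regulators Zfp57 and Zfp445 had log2 changes of -0.23 and -0.37 (edgeR adjusted p = 0.579 and 0.119). Zfp568, a repressor of placental Igf2, had one of -0.33, with RGS tumor 12 at 2.26 CPM and the other 5 tumors at 10.04 to 14.6 CPM. Zfp932, which silences endogenous retroviruses, had one of -0.86 with overlapping values.

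Of 9 Zfp genes that act on RNA or translation, 3 were lower (33.3%) and 1 higher (11.1%), beside a background of 21.7% each way at the count floor. Zfp36 (tristetraprolin), which drives the decay of AU-rich mRNAs of cytokines, measured 57.0, 65.1 and 71.8 CPM in vehicle and 26.7, 38.6 and 50.7 CPM in RGS tumors (log2 change -0.74, SE 0.21, edgeR adjusted p = 0.0114, and 0.0765 without RGS tumor 10). Its relatives Zfp36l1 and Zfp36l2 were lower as well, by -0.54 and -1.07, and Zfp36l1 lost its call with the GC offset (adjusted p = 0.0766), with an offset for gene length (0.0567), and without vehicle tumor 7 or 8 or RGS tumor 10 or 12 (0.0587 to 0.147). Zfp36l3 was not tested. Zfp346, which binds double-stranded RNA, measured 48.8, 48.2 and 56.1 CPM in vehicle and 29.8, 22.5 and 30.8 CPM in RGS tumors (log2 change -0.88).

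Zfp207 (BuGZ), a kinetochore and spindle protein that binds Bub3, measured 185, 231 and 231 CPM in vehicle and 152, 159 and 164 CPM in RGS tumors (log2 change -0.44, SE 0.15, edgeR adjusted p = 0.0326). Its groups were apart, but the change was 0.01 with the GC offset (adjusted p = 0.963) and the adjusted p was 0.0598 to 0.19 without any 1 tumor other than vehicle 7. Zfp106, an RNA-binding protein needed by motor neurons and muscle, rose from 138, 92.0 and 88.8 CPM to 177, 158 and 152 CPM (log2 change 0.61), with an adjusted p of 0.0664 without vehicle tumor 8 and 0.062 without RGS tumor 10. The ribosome quality control ligase Zfp598 measured 94.8, 71.9 and 74.6 CPM and 96.0, 105 and 107 CPM, with an edgeR adjusted p of 0.107. The other 4, Zfp326, Zfp622, Zfp638 and Zfp830, had log2 changes of -0.20 to 0.65 and did not pass the test.

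Of 17 Zfp genes of chromatin and transcription complexes, 16 were tested, and 4 were higher (25%) and 2 lower (12.5%). The background at the count floor was 21.7% each way. Zfp687, a partner of Zfp592 in a corepressor complex, rose from 31.1, 20.7 and 22.4 CPM to 50.8, 43.9 and 40.3 CPM (log2 change 0.86). Zfp592 itself went from 30.5, 22.3 and 23.0 CPM to 34.5, 48.0 and 27.9 CPM, with overlapping values and an edgeR adjusted p of 0.0775. Zfp217, an amplified gene of breast cancer that works with LSD1 and CoREST, rose from 44.4, 40.5 and 37.2 CPM to 68.0, 72.5 and 59.8 CPM (log2 change 0.71). All 3 RGS values were clear of the vehicle ones.

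Zfp219, a cofactor of Sox9, rose from 84.8, 61.5 and 74.8 CPM to 117, 117 and 133 CPM (log2 change 0.73, edgeR adjusted p = 0.0023, and 0.0799 with the GC offset). Zfp516, a factor of the brown fat program, rose from 96.4, 66.7 and 53.1 CPM to 135, 107 and 100 CPM (log2 change 0.66), with an adjusted p of 0.069 without vehicle tumor 9 and 0.102 without RGS tumor 10. In both genes the values of the groups did not overlap, narrowly so in Zfp516. Zfp148 fell from 75.6, 74.2 and 66.5 CPM to 58.5, 46.9 and 45.2 CPM (log2 change -0.52), and Zfp644, a partner of the methyltransferases G9a and GLP, from 22.4, 21.1 and 30.1 CPM to 16.1, 11.7 and 12.8 CPM (log2 change -0.85). Zfp148 lost its call without vehicle tumor 8 or RGS tumor 11 or 12 (edgeR adjusted p from 0.0921 to 0.13) and Zfp644 without vehicle tumor 9 (0.0861), and both with the GC offset (0.959 and 0.34). The other 10 tested genes had log2 changes from -0.40 to 0.54.

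Of 9 Zfp genes of development, 5 were above the count floor and 2 of these passed the test. That was 1 higher and 1 lower (20% each), beside a background of 21.7% each way at the count floor. Zfp703, described above, rose, and Zfp365, a centrosome and genome stability protein of neurons, fell from 33.1, 26.8 and 33.8 CPM to 11.1, 16.05 and 8.93 CPM (log2 change -1.38, SE 0.25, edgeR adjusted p = 0.000338). Zfp292, Zfp462 and Zfp503 had log2 changes of 0.04, 0.10 and -0.31 and overlapping values. Zfp750 was below the floor, with at most 1.46 CPM in any tumor, and Zfp366, Zfp423 and Zfp521 were not tested, with median counts of 0. None of the 3 ubiquitin and SUMO ligases, Zfp91, Zfp451 and Zfp598, passed the test, with log2 changes of 0.07, 0.10 and 0.35; at an unadjusted p under 0.05 1 of them, Zfp598, did, and DESeq2 called 0.

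Of the 72 genes chosen for naming, 45 passed the test, and 26 of these 45 also passed in every fit that left out 1 tumor. The others are those given above with an adjusted p without a tumor. Zfp81, Zfp282, Zfp467 and Zfp870 were not among the 72, and whether their calls hold without each tumor is not given here. With the GC offset 15 of the 45 did not pass or turned in sign.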

How the data were processed

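Bulk RNA-seq counts were deposited by the authors as 1 table of raw counts per gene for 6 tumors. The submitters' processing notes name cutadapt 1.18, FastQC 0.11.7, STAR 2.7.1a and featureCounts 1.6.4 with mm10; strand and multi-mapping settings are not given in the sources used here. All 38927 identifiers shared with GENCODE M21, of 40166 genes, had the same coordinates and exon length there.

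Genes with a median count of at least 5 in 1 or both groups were kept (15355). RGS tumors were compared with vehicle tumors by the quasi-likelihood test of edgeR 4.0.16 (R 4.3.3) after TMM scaling. Adjusted p-values follow Benjamini and Hochberg, taken over every gene kept, and the threshold was 0.05. Standard errors were taken as the absolute log2 change over the square root of F. The fit was tested on simulated data. Alternatives were DESeq2 1.42.0, limma 3.58.1 voom with quality weights, other scalings, filters, thresholds and count floors, a gene length offset, thinning to the smallest library, and leaving out each tumor. The GC offset, the looser KRAB motif and leaving out members with shared sequence were added after seeing the data.

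KRAB and finger motifs were searched in proteins translated from GENCODE M21 coding regions, in place of the RefSeq proteins planned. Promoters came from RefSeq (GRCm38.p6), matched by symbol for 165 Zfp genes. Exon overlap and shared 100-base words were computed from GENCODE M21.

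The members and lists were chosen with earlier results of these data known. Genes named with values were members on the lists, the 10 largest decreases and increases among genes past the threshold without overlap, 2 genes on each side of the count floor, the 3 highest per length, the largest decrease and increase of each chromosome described, and corepressor genes past the threshold. Depth was 13837932 to 32555494 counts per library.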

Additional observations from a re-analysis of the deposited data

How the results depend on the processing

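DESeq2, RLE and upper-quartile scaling, both other filters on low counts, thinning and leaving out the 28 genes with shared sequence or exon overlap kept each Zfp count within 1.5 times its value and each median within the spread between tumors. With limma voom, 37 Zfp genes were higher (1 with the KRAB motif, 36 without). With library size alone, 8 were higher, all without the motif, and the medians were -0.29 for all Zfp genes and -0.071 without the motif; Zfp106, Zfp362, Zfp414, Zfp516 and Zfp628 lost their call, and Zfp414 also with voom. The length offset gave a median of -0.094 while the median of all genes moved from -0.05 to 0.06. The GC offset gave 22 lower Zfp genes (median 0.016), with 9 lower and 1 higher with the motif (median -0.16) and 13 lower without it (median 0.18); Zfp207 turned to 0.012. At an adjusted p under 0.01, 23 were lower (13 with and 10 without the motif) and 7 higher, all 7 without the motif. A log2 change of at least 1 in addition left 23 lower and 3 higher, and 7 lower and 3 higher without the motif. A floor of 50 counts gave a median of -0.22, and one of 500 counts 17 lower genes (4 with and 13 without the motif) and a median of -0.015. The looser motif added 1 higher gene. Thinned to the smallest library, 43 Zfp genes were lower and 20 higher.

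Without 1 tumor each, lower Zfp genes numbered 29 to 49 and higher ones 10 to 26, with medians of -0.18 to -0.086. With the motif they numbered 15 to 28 and 0 to 1 (medians -0.66 to -0.50), and without it 14 to 21 and 10 to 25 (medians 0.028 to 0.16). No paired analysis was possible because the groups share no replicate numbers.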
